A study of Homo sapiens with 6 samples.

Results

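The nuclear genes for subunits of respiratory complexes III, IV and V, with cytochrome c, were followed in SW480 cells, an established human colon adenocarcinoma line. Members were the genes whose symbol in the deposited table is CYC1 or CYCS or begins with UQCR, COX4, COX5, COX6, COX7, COX8, ATP5F1, ATP5M or ATP5P, which gave 47 of 20289 genes. Of these, 10 belong to complex III, 17 to complex IV and 19 to complex V by their symbol, and CYCS stands on its own. RNA was sequenced from 3 control cultures, LV-NC (genotype WT), and 3 cultures overexpressing Flag-tagged MUCP1, called MUCP1-FLAG, a microprotein that the series title links to succinate transport and glutamine metabolism. The same serum-supplemented L-15 medium was used for both groups. The labels name no promoter, clone, passage or batch, and call the libraries biological replicates. The p-values therefore set the difference between the groups against the spread between these libraries. Whether the cultures of a group were made separately from each other is not stated in the labels. The table holds 0 rows with the symbol MUCP1, so the overexpression could not be checked here.

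Complex III passes electrons from ubiquinol to cytochrome c, a small soluble carrier, and complex IV passes them on to oxygen. Both pump protons across the inner mitochondrial membrane, and complex V, the ATP synthase, lets the protons flow back and makes ATP. The catalytic core of complex IV and parts of complexes III and V are encoded in mitochondrial DNA, whereas the members described here are made from nuclear genes and imported. Several complex IV subunits have alternative isoforms for heart and skeletal muscle, lung or testis.

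Of the 40 members that passed the low-count filter, 10 rose in MUCP1-FLAG cells and 1 fell (edgeR quasi-likelihood test, Benjamini-Hochberg adjusted p under 0.05 over 12920 tested genes). Of all tested genes 8.35% were higher by this rule and 7.71% lower. By complex, 8 of 18 tested members of complex V rose and 0 fell, 2 of 12 of complex IV rose and 1 fell, and 0 of 9 of complex III were called. Other scalings and tools changed this split: with upper-quartile factors or total counts alone 3 genes of complex V and 3 of complex IV were called in either direction, and with limma on log2(FPKM + 1) 2 and 3. Rises were small, from 1.09-fold for ATP5F1B to 1.22-fold for ATP5F1D. The calls rest on few libraries: 1 of the 10 rises, ATP5F1C, was called without MUCP1-FLAG replicate 2, and likewise 1, again ATP5F1C, without MUCP1-FLAG replicate 3. With those libraries left out the share of all genes called higher was 5.56% and 4.91%.

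The promoters of 5 of the risen genes are shown because their coordinates and letters are on file and they hold a match to a motif of factors known for nuclear respiratory genes. Of the other risen genes, COX7A2 has a promoter on file without a match, and ATP5F1B, ATP5F1D, ATP5MC3 and ATP5MF have none on file. Members that were not called hold matches too, such as UQCRH, COX5B and ATP5PD. The sequences are RefSeq's, build GRCh38.p14, from 250 bases before to 50 bases after the annotated start, written 5′ to 3′ on the gene's strand. Capitals mark the ETS core CCGGAAG, which the factor GABP binds, the palindromic NRF1 core, spelled out by the capitals of ATP5F1C, and the YY1 motif AAGATGGCG, each searched on both strands. In ATP5MK, 2 ETS matches on opposite strands overlap.
ATP5F1C, chr10:7787927-7788226 (+): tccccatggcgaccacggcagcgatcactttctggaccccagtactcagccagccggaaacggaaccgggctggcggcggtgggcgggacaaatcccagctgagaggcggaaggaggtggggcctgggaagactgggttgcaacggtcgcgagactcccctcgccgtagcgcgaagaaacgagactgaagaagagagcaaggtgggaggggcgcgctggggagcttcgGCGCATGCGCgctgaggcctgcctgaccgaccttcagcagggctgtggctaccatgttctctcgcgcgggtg
ATP5PF, chr21:25735005-25735304 (-): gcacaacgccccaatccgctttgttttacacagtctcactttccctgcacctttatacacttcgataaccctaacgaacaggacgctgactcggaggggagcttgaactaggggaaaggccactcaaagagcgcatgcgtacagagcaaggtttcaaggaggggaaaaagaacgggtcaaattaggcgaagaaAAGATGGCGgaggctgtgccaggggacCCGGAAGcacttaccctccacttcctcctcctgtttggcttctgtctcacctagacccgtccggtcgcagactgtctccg
ATP5MG, chr11:118401356-118401655 (+): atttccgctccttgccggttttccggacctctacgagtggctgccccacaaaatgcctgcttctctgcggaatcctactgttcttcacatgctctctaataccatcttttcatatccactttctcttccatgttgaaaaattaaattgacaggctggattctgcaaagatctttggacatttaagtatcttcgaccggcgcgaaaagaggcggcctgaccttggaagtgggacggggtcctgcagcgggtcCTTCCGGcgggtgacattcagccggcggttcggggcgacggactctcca
ATP5MK, chr10:103396426-103396725 (-): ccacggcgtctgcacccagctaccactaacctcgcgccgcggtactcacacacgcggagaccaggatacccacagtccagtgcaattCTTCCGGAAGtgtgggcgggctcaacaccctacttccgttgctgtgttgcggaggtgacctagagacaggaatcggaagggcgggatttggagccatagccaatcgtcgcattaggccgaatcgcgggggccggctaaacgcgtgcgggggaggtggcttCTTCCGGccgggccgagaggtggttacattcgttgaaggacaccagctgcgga
COX6B1, chr19:35648073-35648372 (+): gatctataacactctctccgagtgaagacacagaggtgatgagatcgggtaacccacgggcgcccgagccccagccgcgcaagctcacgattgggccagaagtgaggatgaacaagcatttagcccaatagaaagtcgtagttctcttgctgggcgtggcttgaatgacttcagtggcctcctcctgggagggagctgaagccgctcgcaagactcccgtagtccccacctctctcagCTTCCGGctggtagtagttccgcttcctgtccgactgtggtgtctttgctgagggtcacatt

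Promoter entries matched 35 of the 47 members, of which 32 were tested. The ETS core stood in 13 of the 32, or 40.6%, and in 37.1% of the 35, against 14.2% of 15843 promoters of protein-coding genes of the same length. Those 15843 promoters were not limited to tested genes. The ETS core was found in 3 of 7 promoters of complex III, 5 of 11 of complex IV and 5 of 13 of complex V. Whether these shares differ, or go with the calls, was not tested. The NRF1 core stood in 1 of the 32 promoters (3.12%), that of ATP5F1C, against 1.75% of all. The YY1 motif stood in 2, among them ATP5PF, or 6.25% against 2.74%. A match is a run of letters and not a measured binding site.

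Levels of members ran over a wide range. Levels of different genes are given as FPKM, deposited values scaled for gene length and library size, in the order LV-NC replicates 1, 2 and 3 and then MUCP1-FLAG replicates 1, 2 and 3. ATP5F1B, the catalytic beta subunit of ATP synthase, stood highest of all members, at 485, 471 and 455 FPKM in LV-NC against 511, 512 and 505 in MUCP1-FLAG. In complex IV the highest was COX6A1, at 300.01, 277 and 256 against 279, 303 and 287 FPKM. UQCRC1, a core protein of complex III, led that complex at 184, 179 and 165 against 181, 185 and 189 FPKM. The FPKM of ATP5F1E and UQCRFS1 are low beside their partners (25.4 and 27.5 on average over 6 libraries). Their counts and FPKM imply gene lengths of 3273 and 3086 nt, longer than for any other tested member, so their place in this order depends on the length that was used.

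**Figure D1:**
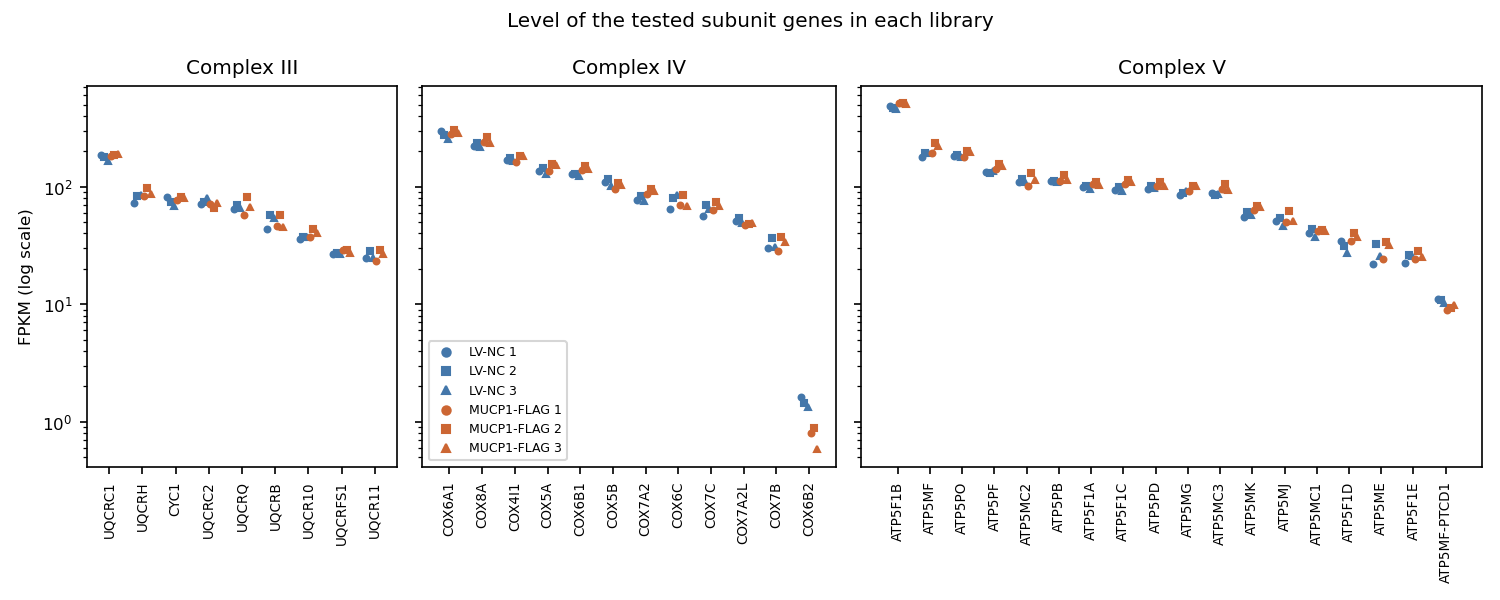
Deposited FPKM (log scale) of the 39 tested subunit genes in each of the 6 libraries, by complex, ordered by mean level. Blue is LV-NC, orange MUCP1-FLAG, and symbols mark replicates 1 to 3. ATP5F1B stands near 490 FPKM and COX6B2 near 1.11.

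Tissue-restricted isoforms were near or at 0. COX4I2 (the lung isoform of COX4), COX6A2 and COX7A1 (heart and skeletal muscle isoforms), COX8C (a testis isoform) and ATP5MGL, a copy related to ATP5MG, had 0 counts in all 6 libraries. A count of 0 allows up to 0.129 to 0.173 CPM, that is, 3 counts per library, for counting error alone. COX7B2, another testis isoform, had 1 count in LV-NC replicate 3 and 0 elsewhere, and UQCRHL, an intronless copy of UQCRH, 5, 4 and 11 counts against 1, 4 and 2. These 7 members did not pass the low-count filter. All were left untested, so the counts by complex cover the members with reads and not the whole gene families.

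COX6B2 was the only tissue-restricted isoform among the tested members, and it was called. This testis isoform of COX6B was read by 53, 54 and 45 counts in the LV-NC libraries, where the MUCP1-FLAG libraries had 23, 35 and 19, or 2.76, 2.503 and 2.36 against 1.33, 1.52 and 0.97 CPM (counts relative to the scaled size of the library). The groups did not overlap, and the gene fell by 0.98 ± 0.25 on the log2 scale (SE, edgeR adjusted p 0.00834, n = 3 per group). Its share of COX6B FPKM went from 1.14% ± 0.10 to 0.52% ± 0.10 (SD, n = 3), the rest being COX6B1. Without MUCP1-FLAG replicate 3 its adjusted p was 0.0574. An exon of COX6B2 overlaps another protein-coding gene on the same strand, so some of its reads may not be its own.

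In ATP synthase the catalytic head and central stalk are ATP5F1A to ATP5F1E, the alpha to epsilon subunits. ATP5F1C, the gamma subunit that turns inside the head, had 103, 109 and 99.1 CPM in the LV-NC libraries against 117, 128 and 121 in MUCP1-FLAG. Every MUCP1-FLAG library stood above every LV-NC library, a rise of 0.24 ± 0.05 on the log2 scale (edgeR adjusted p 0.00471). It was called in all 6 fits that left out 1 library, with adjusted p from 0.00484 to 0.0467. ATP5F1B had 839, 811 and 779 CPM against 888, 900.0 and 869, again without overlap, and rose by 0.13 ± 0.04 (edgeR adjusted p 0.0485). ATP5F1D, the delta subunit of the central stalk, had the largest value of the complex, 0.29 ± 0.09 (edgeR adjusted p 0.0394), but its groups overlapped, at 26.9, 23.8 and 20.7 against 26.4, 31.7 and 28.9 CPM. ATP5F1A, the alpha subunit, missed the threshold, with 0.13 ± 0.05 (edgeR adjusted p 0.0784), although its groups stood apart at 194, 195 and 183 against 207, 216 and 202 CPM. ATP5F1E, the epsilon subunit, had 0.09 ± 0.07 (edgeR adjusted p 0.436).

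The peripheral stalk holds the head still against the turning rotor, and 1 of its 4 genes rose. ATP5PF, coupling factor 6, had 76.5, 75.3 and 75.6 CPM in LV-NC against 82.7, 91.6 and 85.8, without overlap, and rose by 0.19 ± 0.06 (edgeR adjusted p 0.0188). Exons of ATP5PF overlap those of GABPA and JAM2 on the other strand, and whether reads were counted by strand is not stated in the sources used here. The value of GABPA, a subunit of GABP, was −0.06 ± 0.07 (edgeR adjusted p 0.619). ATP5PB, subunit b, stood just above the threshold, at 0.13 ± 0.05 (edgeR adjusted p 0.0646), with groups apart at 146, 144 and 143 against 160, 161 and 153 CPM. ATP5PD, subunit d, and ATP5PO, which joins the stalk to the head, had 0.11 ± 0.06 and 0.09 ± 0.05 with overlapping groups.

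The rotor ring is built of subunit c, whose mature protein is the same from the genes ATP5MC1, ATP5MC2 and ATP5MC3. Of these, ATP5MC3 rose, at 92.7, 91.5 and 91.9 CPM against 99.9, 111 and 99.4, without overlap (log2 fold change 0.17 ± 0.06, edgeR adjusted p 0.0405). ATP5MC2 had the largest adjusted p of complex V, 0.601, at 70.8, 75.1 and 69.6 against 66.5, 85.8 and 73.1 CPM. Its MUCP1-FLAG libraries spread on both sides of LV-NC, and its log2 fold change of 0.07 ± 0.08 was −0.04 without MUCP1-FLAG replicate 2. ATP5MC1 had 0.09 ± 0.08 (edgeR adjusted p 0.508). By FPKM, ATP5MC1, ATP5MC2 and ATP5MC3 gave 16.8%, 46.8% and 36.4% of subunit c transcripts in LV-NC against 16.6%, 45.1% and 38.3% in MUCP1-FLAG, and each gene's 3 shares in LV-NC lay within 3 percentage points of each other. Only the ATP5MC3 shares stood apart between groups, at 37.2%, 34.7% and 37.2% against 39.7%, 37.6% and 37.6%. The gap, from 37.23% in LV-NC replicate 1 to 37.55% in MUCP1-FLAG replicate 3, was narrower than the spread within LV-NC.

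Of the small membrane subunits ATP5ME, ATP5MF, ATP5MG, ATP5MJ and ATP5MK, 3 rose. ATP5MF, subunit f, had 64.2, 69.2 and 67.4 CPM in LV-NC against 69.5, 86.9 and 80.8 in MUCP1-FLAG (0.24 ± 0.07, edgeR adjusted p 0.0202). Its groups were parted by a narrow gap, and MUCP1-FLAG replicate 1 lay close to LV-NC replicate 2. The readthrough gene ATP5MF-PTCD1, which shares exons with ATP5MF, was the tested complex V member with a negative value, −0.13 ± 0.08 (edgeR adjusted p 0.298), and reads of this pair cannot be told apart with certainty. ATP5MG, subunit g, had 94.1, 97.9 and 102 against 103, 116 and 113 CPM (0.18 ± 0.06, edgeR adjusted p 0.0383), and its groups did not overlap. Exons of ATP5MG overlap another protein-coding gene on the same strand, so some of its reads may not be its own. ATP5MK, a small subunit also known as DAPIT, had 21.2, 23.5 and 21.9 against 24.8, 27.0 and 26.2 CPM, without overlap (0.23 ± 0.08, edgeR adjusted p 0.0478), yet it was called in 0 of the 6 fits with a library left out. Exons of ATP5MK overlap those of TAF5 on the other strand. ATP5ME and ATP5MJ had 0.18 ± 0.15 and 0.12 ± 0.09 with overlapping groups.

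**Figure D2:**
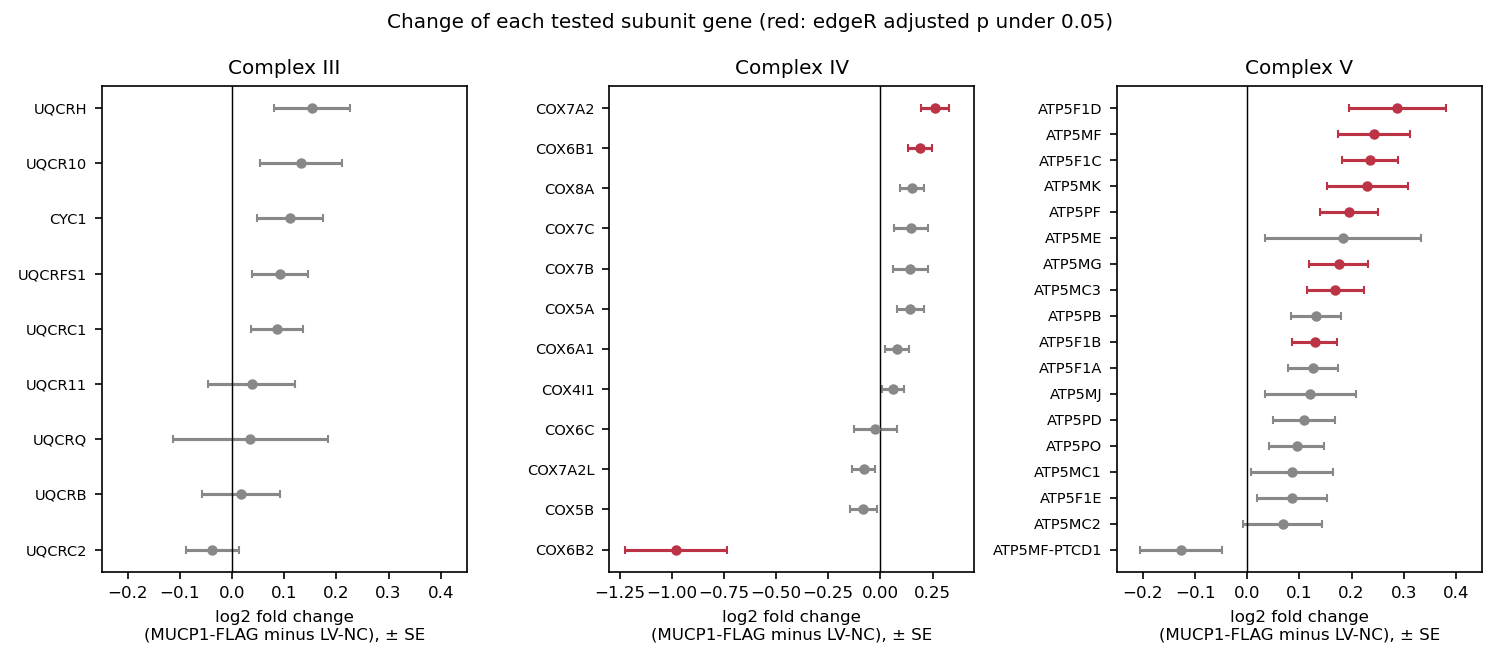
Log2 fold change (MUCP1-FLAG minus LV-NC, edgeR, bars ± SE) of the 39 tested subunit genes, by complex, with genes at an adjusted p under 0.05 in red. The axis of complex IV is wider because of COX6B2 at −0.98, and in complex V 17 of 18 values lie above 0.

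In complex IV, COX7A2 and COX6B1 rose. COX7A2, the form of COX7A found outside muscle, had 42.4, 45.7 and 40.4 CPM in LV-NC against 47.8, 54.2 and 51.7 in MUCP1-FLAG (0.26 ± 0.07, edgeR adjusted p 0.0106). COX6B1, which faces the side where cytochrome c docks, had 62.1, 62.9 and 59.8 against 68.0, 73.7 and 69.2 CPM (0.19 ± 0.06, edgeR adjusted p 0.0256). The groups stood apart for both genes. Neither was called without MUCP1-FLAG replicate 2 (adjusted p 0.084 and 0.157) or without MUCP1-FLAG replicate 3 (0.0565 and 0.0737), and COX6B1 also not without LV-NC replicate 2 (0.0673).

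The other complex IV subunits overlapped between the groups. COX8A had 0.15 ± 0.06 (edgeR adjusted p 0.0869), COX5A 0.14 ± 0.06, COX7B 0.14 ± 0.08 and COX7C 0.15 ± 0.08. For COX7B the length implied by count and FPKM varied by 6.27% between libraries, the largest variation among the members, and the log2 fold change in the authors' deposited table was 0.03. COX6A1 had 161, 149 and 136 against 151, 165 and 154 CPM, with a log2 fold change of 0.08 ± 0.06. COX4I1, the ubiquitous form of COX4, had 0.06 ± 0.05, and COX5B −0.08 ± 0.07. COX6C had the largest adjusted p, 0.906, at 36.9, 45.4 and 47.7 against 39.8, 48.7 and 39.1 CPM. COX7A2L, a relative of COX7A2 that ties complexes III and IV into supercomplexes, had −0.08 ± 0.05 (edgeR adjusted p 0.340) beside the rise of COX7A2.

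Complex III had no called member. At an unadjusted p under 0.05 edgeR gave 1 of the 9, and DESeq2 and limma on log2(FPKM + 1) called 0 at an adjusted p under 0.05. That gene was UQCRH, the hinge protein beside cytochrome c1, at 40.1, 45.3 and 46.2 CPM against 45.5, 53.4 and 47.2 (0.15 ± 0.07, edgeR adjusted p 0.167). The catalytic subunits CYC1, which carries heme c1, and UQCRFS1, the Rieske iron-sulfur protein, had 0.11 ± 0.06 and 0.09 ± 0.05. UQCRFS1 stood apart between groups by a small gap, at 81.8, 83.7 and 81.4 against 88.9, 90.3 and 83.9 CPM. Without LV-NC replicate 1, CYC1 had 0.18 and an adjusted p of 0.0317. The core proteins UQCRC1 and UQCRC2 had 0.09 ± 0.05 and −0.04 ± 0.05. Of the small subunits, UQCRQ had the largest adjusted p, 0.908, at 53.3, 57.7 and 50.7 against 45.3, 67.9 and 51.7 CPM, so that MUCP1-FLAG held both its lowest and its highest library. UQCR10, UQCR11 and UQCRB had 0.13 ± 0.08, 0.04 ± 0.08 and 0.02 ± 0.07. CYCS, cytochrome c, had 440, 477 and 490 against 479, 494 and 460 CPM, a change of 0.03 ± 0.05 (edgeR adjusted p 0.765). GENCODE 29 names 40 pseudogenes of CYCS and 17 of COX6C, more than for any other member, and reads shared with such copies may have been counted or lost.

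The medians of the complexes lay closer together than the counts of calls. Median log2 fold changes were 0.09 for complex III (range −0.04 to 0.15), 0.11 for complex IV (−0.98 to 0.26) and 0.13 for complex V (−0.13 to 0.29), beside −0.0042 over all tested genes. Values were above 0 for 8 of 9, 8 of 12 and 17 of 18 members. The groups stood apart for 1 of 9, 3 of 12 and 10 of 18 members. For all 40 this was 14, of which 12 were higher, where the groups stood apart for 33.1% of all tested genes and 16.6% were apart and higher. The count of members apart in either direction is thus close to that of all genes, but its split by direction is not. Of the 40 members 12 were apart and higher and 2 apart and lower, beside 2148 and 2123 of 12920 genes. This lean was not particular to the members, since 6 of 38 complex I subunits were apart and higher and 0 apart and lower. Whether the complexes differ in their change was not tested, and a complex with no call is not shown to be unchanged.

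Summed over genes, complex V stood apart between the groups and the others did not. Complex V had 2089, 2099 and 2012 CPM in LV-NC against 2208.5, 2371 and 2239 in MUCP1-FLAG, 9.98% more on average, and 10.4% more without ATP5F1B, its largest term. Complex IV had 892, 942 and 864 against 896, 1012 and 939 CPM, and complex III 793, 806 and 754 against 786, 862 and 815, means 5.49% and 4.68% higher with overlap. The ratio of the complex V sum to the complex III sum does not depend on how libraries are scaled. It was 2.63, 2.60 and 2.67 in LV-NC against 2.81, 2.75 and 2.75 in MUCP1-FLAG, or 2.64 ± 0.03 against 2.77 ± 0.03 (SD, n = 3), without overlap. The ratio of complex V to complex IV was 2.34, 2.23 and 2.33 against 2.47, 2.34 and 2.39, parted by less than 0.01, and that of complex IV to complex III overlapped, with means that differed by 0.736%.

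**Figure D3:**
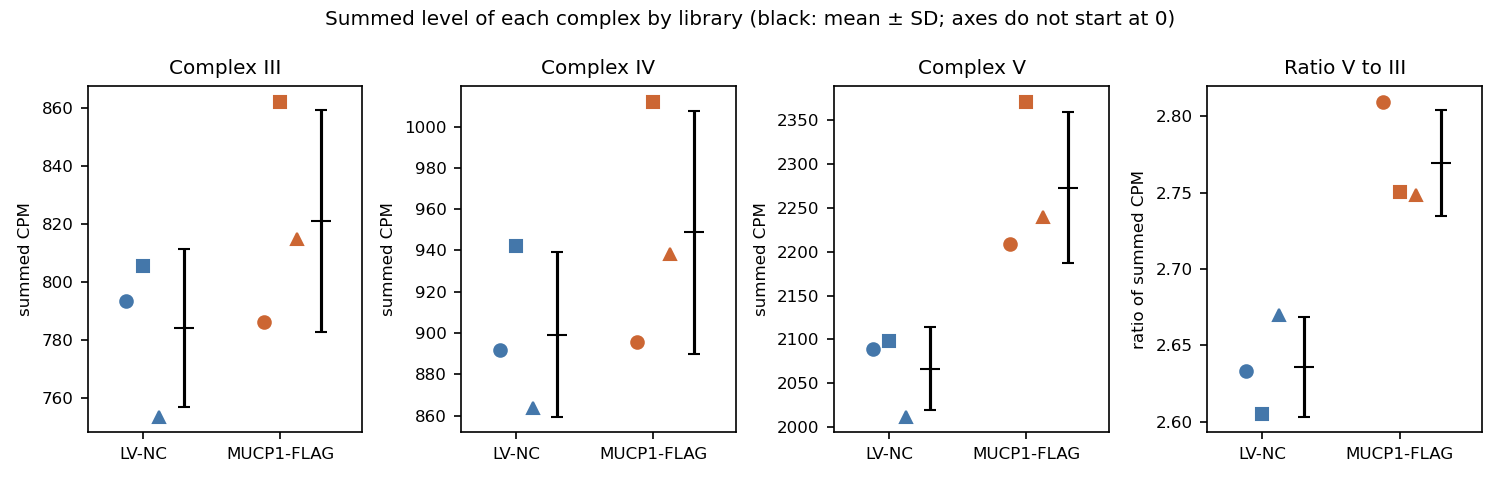
Summed CPM of all members of each complex, and the ratio of complex V to complex III, in each library (points) with mean ± SD (black) per group. The axes do not start at 0. Complex V sums of 2208.5 to 2371 in MUCP1-FLAG lie above those of 2012 to 2099 in LV-NC, and the other complexes overlap.

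The members moved together from library to library, within groups as well. MUCP1-FLAG replicate 2 had the highest value of its group for 37 of the 40 tested members (92.5%), where it was the highest for 34.0% of all tested genes. In LV-NC, replicate 2 was highest for 26 of 40 (65.0%), against 25.9% of all genes. Relative to each gene's mean in LV-NC, the median of complex V genes was 0.07, 0.25 and 0.11 on the log2 scale in MUCP1-FLAG replicates 1, 2 and 3. For complex III it was 0.01, 0.185 and 0.04, and for complex IV 0.02, 0.22 and 0.09. MUCP1-FLAG replicate 2 was also the deepest library, with 23282604 counts against 17333329 to 21534908 in the others. LV-NC replicate 2 was the deepest of its own group, with 21534908 counts against 19130086 and 18867369. Many members have short transcripts. Against each gene's mean over all 6 libraries, the median of the 3053 tested genes with a median transcript under 1000 nt was 0.03 in MUCP1-FLAG replicate 2 and −0.03 in LV-NC replicate 3, with the other libraries within 0.01 of 0. Against that same mean, the median of the 40 members was 0.17 in MUCP1-FLAG replicate 2 and −0.08 in LV-NC replicate 3. The part of depth or transcript length in the rises was not tested. In a fit with an offset for transcript length in each library, added after the data were seen, 6 members were called higher, 4 of them in complex V.

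**Figure D4:**
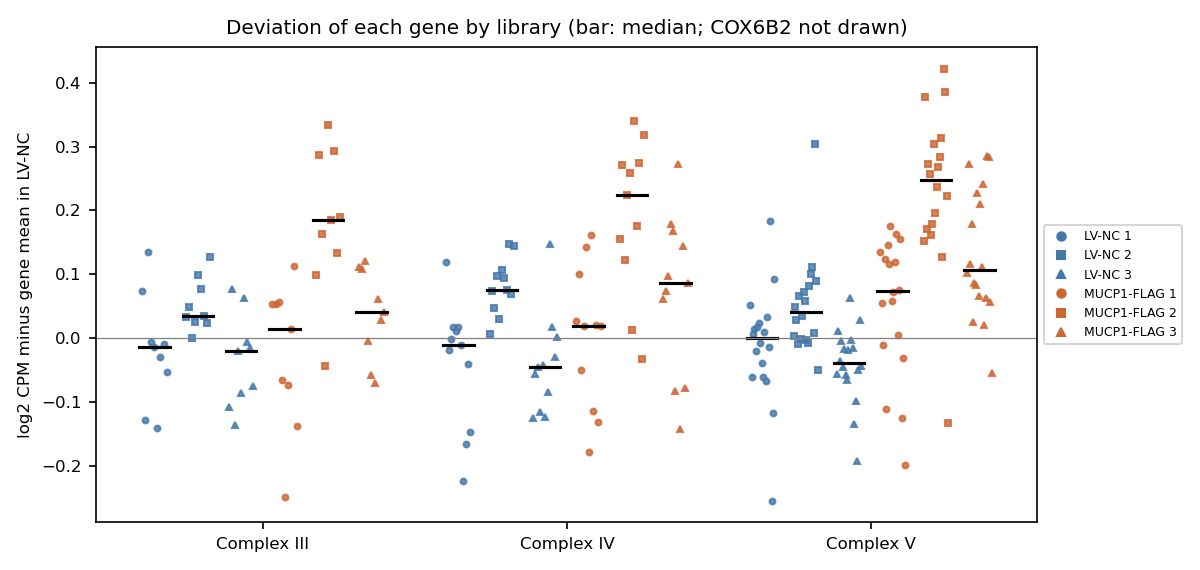
Log2 CPM of each tested gene minus its mean in LV-NC, by complex and library (bars: medians; COX6B2 is not drawn). The median of complex V is 0.25 in MUCP1-FLAG replicate 2 and 0.07 and 0.11 in replicates 1 and 3.

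In the 6 fits that left out 1 library, 36 to 39 of the 40 tested members kept their sign, the 11 called ones among them, which were chosen on all 6 libraries. Calls that stayed numbered 8, 4 and 8 of the 11 without LV-NC replicates 1, 2 and 3, and 8, 2 and 1 without MUCP1-FLAG replicates 1, 2 and 3. The 2 were ATP5F1C and COX6B2. Without MUCP1-FLAG replicate 2, 16 of 18 complex V genes had values above 0, against 17 in every other such fit. Over all genes, fewer were called higher than with 6 libraries when a library was left out, except for LV-NC replicates 1 and 3, where 9.16% and 10.2% were. The log2 fold change of ATP5F1B ran from 0.10 to 0.16 over these fits and that of ATP5F1D from 0.20 to 0.38.

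**Figure D5:**
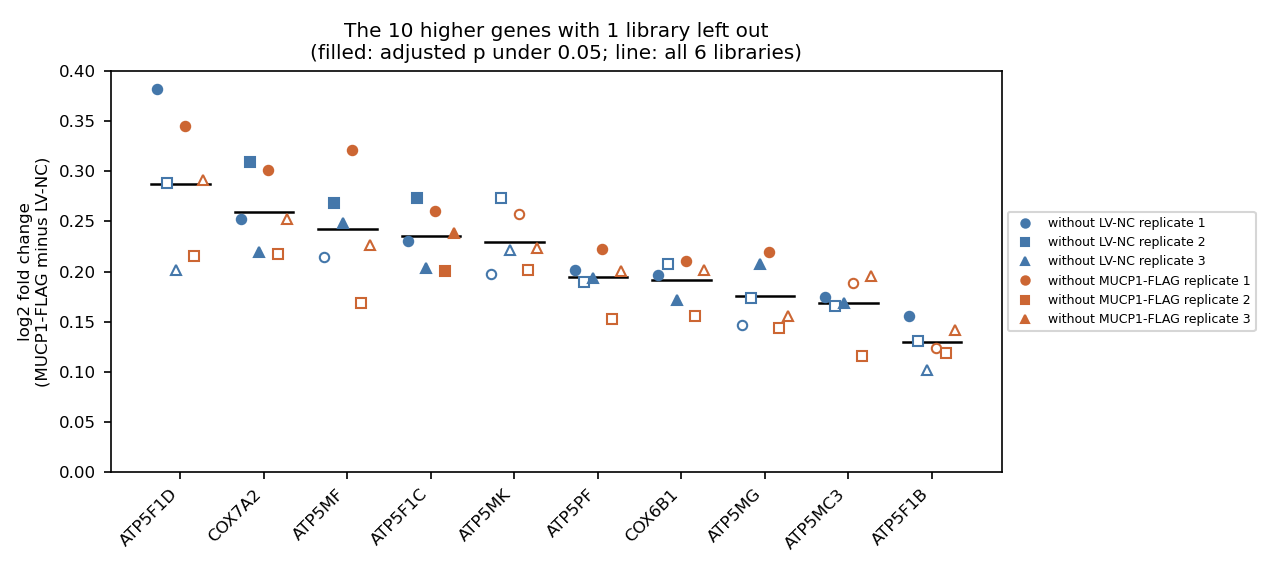
Log2 fold change of the 10 risen genes when 1 library is left out (symbol and colour: the library; filled: adjusted p under 0.05; line: all 6 libraries). ATP5F1C is filled in all 6 fits and ATP5MK in none, and all values lie above 0.

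Genes that help to build these complexes were counted in the same way. Of the 10 tested assembly genes of complex III 0 were called, and 9 had negative values, with a median of −0.04 (1 at an unadjusted p under 0.05, 0 by DESeq2). Complex IV assembly had 1 of 31 higher, or 3.23% beside the 8.35% of all genes, and a median of −0.0015. That gene was CMC2, at 19.7, 20.5 and 18.8 CPM against 22.1, 25.6 and 25.1 (0.30 ± 0.08, edgeR adjusted p 0.014), with adjusted p of 0.0853 and 0.0777 without MUCP1-FLAG replicates 2 and 3. COX20, which assists subunit 2, had 0.16 ± 0.06 (edgeR adjusted p 0.057), and SCO2, a copper chaperone, −0.40 ± 0.15 (0.0685). Of 6 genes for complex V assembly and its inhibitor 0 were called (0 at an unadjusted p under 0.05, 0 by DESeq2). Among these, ATP5IF1, which blocks the reverse reaction of ATP synthase, had 0.11 ± 0.07 (edgeR adjusted p 0.352). Whether assembly genes differ from subunit genes was not tested.

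Of the regulators of nuclear respiratory genes, edgeR called 0 of 13 beside 16.1% of all genes in either direction, with 2 at an unadjusted p under 0.05 and 0 by DESeq2. These 2 were ESRRA, a nuclear receptor, at −0.16 ± 0.07 (edgeR adjusted p 0.116), and POLRMT, the mitochondrial RNA polymerase, at −0.16 ± 0.07 (0.154). NRF1 had 0.04 ± 0.08 and TFAM −0.02 ± 0.05. The coactivator PPARGC1A was scarce, at 0.47, 0.37 and 0.58 CPM against 1.04, 0.61 and 0.62 (0.66 ± 0.41, edgeR adjusted p 0.303).

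Of the 6 mitochondrially encoded partners 2 rose, or 33.3% beside the 8.35% of all genes, and 0 fell. DESeq2 called 3 of them in either direction, and limma on log2(FPKM + 1) called 0. MT-CO3, a core subunit of complex IV, had 5198, 5610 and 5382 CPM against 5956, 6920 and 6362 and rose by 0.25 ± 0.05 (edgeR adjusted p 0.00218). MT-CO1, the catalytic subunit, had 17787, 18912 and 17567 against 16544, 16705 and 16222 CPM, lower in every MUCP1-FLAG library, and just missed the threshold (−0.13 ± 0.05, edgeR adjusted p 0.0521). MT-CO2 had −0.00065 ± 0.05. For complex V, MT-ATP8 rose by 0.14 ± 0.05 (edgeR adjusted p 0.0469), a call kept in 2 of the 6 fits with a library left out, and MT-ATP6, which shares bases with it, had 0.13 ± 0.05 (0.115). MT-CYB of complex III had 0.10 ± 0.04 (edgeR adjusted p 0.143). These transcripts are cut from long common precursors.

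Among the most similar complexes, 3 of 38 tested complex I subunits were higher and 0 lower, with a median log2 fold change of 0.07, and 0 of 4 of complex II were called (1 at an unadjusted p under 0.05, SDHA at 0.11 ± 0.05, and 0 by DESeq2), with a median of 0.02. The complex I genes were NDUFA12, NDUFS1 and NDUFA2, a share of 7.89% beside the 8.35% of all genes. Values were above 0 for 29 of the 38 complex I subunits, and the groups stood apart for 6, with 6 higher and 0 lower. NDUFA4, which is now counted to complex IV despite its name, had 0.09 ± 0.05 (edgeR adjusted p 0.285).

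Total counts ran from 17333329 to 23282604 per library, with a common coefficient of biological variation of 0.0521. Members took 0.417% to 0.433% of counts in LV-NC and 0.435% to 0.468% in MUCP1-FLAG. Of 12 colon epithelium markers 7 were tested, of which 3 fell, CDH1 by 1.06, VIL1 by 0.40 and EPCAM by 0.33 on the log2 scale, and KRT19 rose by 0.17. CDX1, KRT20, CEACAM5, CDH17 and LGALS4 did not pass the low-count filter. Summed fibroblast markers stood at 0.47 to 0.73 CPM in LV-NC and 0.52 to 0.62 in MUCP1-FLAG, and endothelial markers at 2.41 to 3.30 and 2.26 to 4.17. The blood list stood at 12.5 to 13.2 against 7.33 to 9.04 CPM, of which CD68 alone was tested and fell by 0.62. The part of these shifts in the changes of the members was not tested.

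On GRCh38 with GENCODE 29, ATP5F1C (ENSG00000165629) lies on chromosome 10 at 7788129 to 7807815, ATP5F1B (ENSG00000110955) on chromosome 12 at 56638175 to 56646068 and ATP5F1D (ENSG00000099624) on chromosome 19 at 1241746 to 1244826. ATP5PF (ENSG00000154723) lies on chromosome 21 at 25716503 to 25735673, ATP5MC3 (ENSG00000154518) on chromosome 2 at 175176258 to 175184607 and ATP5MF (ENSG00000241468) on chromosome 7 at 99448475 to 99466331. ATP5MG (ENSG00000167283) lies on chromosome 11 at 118401154 to 118431496, ATP5MK (ENSG00000173915, named ATP5MD in that release) on chromosome 10 at 103389041 to 103396492, COX7A2 (ENSG00000112695) on chromosome 6 at 75237675 to 75250323, COX6B1 (ENSG00000126267) on chromosome 19 at 35648223 to 35658861 and COX6B2 (ENSG00000160471) on the same chromosome at 55349306 to 55354814. In the authors' deposited table, 7 of the 11 called members had an adjusted p under 0.05, ATP5F1C the smallest at 0.00204, and ATP5MG, ATP5MC3, ATP5F1D and ATP5MK had 0.0548, 0.0616, 0.0877 and 0.151.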

How the data were processed

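RNA from 3 LV-NC and 3 MUCP1-FLAG cultures was sequenced, and the authors deposited whole-number read counts and FPKM values per gene, per the file headers, with group means of FPKM, a log2 fold change, a p-value and an adjusted p-value of their own. Build GRCh38 and the tools fastp, HISAT2, featureCounts and DESeq2 are listed in the submitters' processing notes, without roles. Versions, strand setting and the test behind the deposited p-values are not given in the sources used here. For this report the counts were tested with edgeR 4.0.16 in R 4.3.3 (quasi-likelihood F test, robust, TMM scaling, filterByExpr with a minimum count of 10), with Benjamini-Hochberg adjustment over 12920 genes and a threshold of 0.05. Standard errors were computed from fold change and F statistic. CPM values carry TMM factors. The script was tested on simulated data in which all genes shared a common dispersion. Its pass rule covered only changes larger than the rises of the members, so it does not show how well rises of that size are found. Alternatives used DESeq2 1.42.0, limma 3.58.1 on log2(FPKM + 1) and log2(FPKM + 0.1), other scalings and filters, a replicate block and each library left out. Replicate counts differed within groups by more than sampling noise (chi-square per degree of freedom 2.58 to 8.22). Values in every library are given for called members, CYCS, and the members of each complex with the highest mean FPKM or the smallest or largest adjusted p. A few others were chosen after their values were seen. The members and lists were chosen with earlier results of these data known. Zero-count limits cover counting error only.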

Additional observations from a re-analysis of the deposited data

How the results depend on the processing

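Over all genes, limma on log2(FPKM + 1) called 517 higher and 553 lower and on log2(FPKM + 0.1) 510 and 543, against 1079 and 996 with edgeR. Of the members these fits called 4 higher (each time 4), 2 of them in complex V (each time 2). Upper-quartile factors and total counts alone gave 5 and 5 higher members, with 3 and 3 in complex V. The offset for transcript length gave 6, with 4 in complex V. DESeq2, RLE factors, other low-count filters and fits without robust estimation gave counts within 1.5 times of 10. With a library left out, higher members ranged from 1 to 9 and lower from 0 to 1. In complex V the higher ranged from 1 to 6, in complex IV from 0 to 2 (lower 0 to 1) and in complex III from 0 to 1. Over all genes they ranged from 639 to 1323 higher and 624 to 1213 lower. Median log2 fold changes of the complexes stayed above 0 in every fit, from 0.04 to 0.14 over complexes III and IV and from 0.11 to 0.16 in complex V. Signs turned for members that were not called: with limma, UQCRB had −0.0424 (pseudocount 1) and −0.0431 (pseudocount 0.1). With 1 library left out, log2 fold changes ran from −0.0751 to 0.0596 for UQCRB, from −0.15 to 0.148 for UQCRQ, from −0.0479 to 0.11 for UQCR11, from −0.0407 to 0.143 for ATP5MC2, from −0.0178 to 0.0594 for CYCS and from −0.137 to 0.0493 for COX6C. The cause was not tested.

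Same-numbered libraries deviated together little (Pearson's r across genes 0.0024 to 0.0498). Libraries with different numbers had r from −0.0461 to 0.0076. Correlations this small, taken over all genes, cannot tell whether the numbers pair the cultures. With the replicate number as a block, 1005 genes were higher and 954 lower, and 8 members were higher, 6 of them in complex V, without ATP5MC3 (adjusted p 0.0581) and ATP5MK (0.0581).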
